A study of Mus musculus with 18 samples.

Results

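The genes described here are the 8 MHC class II genes H2-Aa, H2-Ab1, H2-Eb1, H2-DMa, H2-DMb1, H2-DMb2, Cd74 and Ciita, taken by symbol from the 37236 genes of the expression table. All 8 are listed in it, and all 8 had a mean of at least 10 normalized counts and so entered the tests, which covered 11992 genes. RNA came from CD3+ T cells from B16-OVA tumors, grown from a mouse melanoma line made to express ovalbumin. The cells had been enriched on CD4 and CD8 beads, pooled and then sorted for CD3, and their RNA was read at the 3′ ends of transcripts. The mice had been backcrossed to C57BL/6, were Nr2f6+/+ or Nr2f6-/-, and all carried tumors grown from 500000 cells injected s.c. They received 0.5 mg per injection of anti-PD-L1 (clone 10F.9G2) or of IgG2b (clone LTF-2) i.p. from d3 on, 2 injections a week, and tumors were taken at d14. There were 3 Nr2f6+/+ IgG2b, 3 Nr2f6-/- IgG2b, 6 Nr2f6+/+ anti-PD-L1 and 6 Nr2f6-/- anti-PD-L1 samples. The labels do not say whether each sample is 1 mouse, so the p-values measure the spread between these samples, which may be technical.

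MHC class II molecules present peptides from ingested proteins to CD4+ T cells and are made mainly by dendritic cells, macrophages and B cells. H2-Aa and H2-Ab1 encode the α and β chain of I-A, and H2-Eb1 encodes the β chain of I-E, whose α chain gene is defective in C57BL/6 mice. Cd74 encodes the invariant chain, which fills the groove until it is cut away. The H2-DM genes encode the chaperone that then exchanges the remaining fragment for peptide. Ciita encodes the transcriptional coactivator that is recruited to an enhanceosome at the SXY motifs of these promoters and is needed for class II transcription.

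Each value is a normalized count, that is the number of reads on a gene divided by 1 size factor per sample. The samples held between 12473391 and 18609482 reads on genes, and 3 reads, the limit that a count of 0 allows, equalled between 2.46 and 3.64 normalized counts. The targeted gene Nr2f6 was at 0 in all 9 Nr2f6-/- samples and between 20.2 and 201 in the Nr2f6+/+ samples. T cell genes were high in every sample, the sum of 10 T cell markers lying between 65658 and 107705. The library numbers form 2 sets. All groups have replicates 1 to 3 in the first set, whereas replicates 4 to 6 make up the second and exist with anti-PD-L1 alone.

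In mm10, H2-Aa (chr17:34282744-34287823, - strand), H2-Ab1 (chr17:34257689-34269419, + strand) and H2-Eb1 (chr17:34305867-34316674, + strand) lie next to the DM genes H2-DMa (chr17:34119541-34139101, + strand), H2-DMb2 (chr17:34143307-34151555, + strand) and H2-DMb1 (chr17:34153072-34160230, + strand). Ciita lies apart from them (chr16:10480059-10528418, + strand). RefSeq promoter sequences (GRCm38.p6) were searched for 5 of the 8 genes. None was held for H2-Ab1 and Ciita, and Cd74 was left out of the search. Short stretches from 4 of the 5 genes searched are shown because class II promoters are known to share conserved boxes, through whose binding factors Ciita acts. They were carried by genes whose fall under treatment passed the threshold given below (H2-Aa and H2-Eb1). Genes that missed that threshold (H2-DMb1 and H2-DMb2) carried them too, and a miss does not show that a gene was unchanged. Capitals mark TGATTGG, a form of the Y box, in the first lines below and a form of the X box, 12 letters with any base allowed at the 4th of them, in the lines after them. Each line gives 30 bases 5′ to 3′ on the gene's strand.
H2-Aa (chr17:34287853-34287882): agaattttcTGATTGGttctggcgagtttg
H2-Eb1 (chr17:34305797-34305826): ctttgatgcTGATTGGctcccagcactggc
H2-DMb1 (chr17:34153119-34153148): ttcactcagTGATTGGtctgacctgcctac
H2-DMb2 (chr17:34145148-34145177): gtcacttagTGATTGGactgacttaactac
H2-Eb1 (chr17:34305769-34305798): ctaactagcAACTGATGATGCtggactcct
H2-DMb1 (chr17:34153090-34153119): ttacctagtAACTGATGATGCtaggctgat
H2-DMb2 (chr17:34145119-34145148): ttacctattAACCGATGATGCtaggctaag

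Both motifs were written down after these sequences had been read, and both strands were searched over the 250 bases before the transcript start of each RefSeq promoter window. TGATTGG was found in 4 of the 5 genes and in 8.38% of all 27025 genes with such windows, or 7.23% of all 32851 windows. The X box form was found in 3 of the 5 genes and in 4 genes of all (0.0148%), the other one being Gm36553. Since both motifs were written down after reading, these shares are a description and do not test an enrichment. The matches did not overlap each other. The first base of TGATTGG lay 50 bases before the start of the RefSeq window's transcript in H2-Aa, 61 in H2-Eb1, 63 in H2-DMb1 and 92 in H2-DMb2. The window of H2-DMb2 and both windows of H2-DMa belong to transcripts that start inside the gene as given above, not at its outer end. In H2-DMb1 both stretches lie inside an exon of that gene in GENCODE, which places its start further upstream, and the others lie in no exon. The windows of H2-DMa held neither run of letters. A match describes letters only and does not show that a factor was bound in these cells.

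The question of the treatment comparison was what PD-L1 blockade changed in tumor-infiltrating T cell preparations. The chain genes H2-Aa, H2-Ab1 and H2-Eb1 and the invariant chain gene Cd74 fell with anti-PD-L1, and for each of them every anti-PD-L1 sample lay below every IgG2b sample. Averaged over both genotypes, 4 of the 8 genes were lower past the threshold (limma, adjusted p under 0.05), where 0.934% of all 11992 genes tested were. The median log2 difference of the 8 genes was -2.01, beside -0.07 for all genes tested, and 7 of the 8 lay below 0, as did 56.4% of all genes. H2-DMa, H2-DMb1, H2-DMb2 and Ciita did not pass the threshold. The summed level of 14 macrophage markers was lower in the same samples, between 1001 and 7156 normalized counts with anti-PD-L1 against 10021 to 20576 with IgG2b, and its part in these differences was not tested apart from the covariate fit given further on.

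H2-Aa was at 3784, 7607 and 5146 normalized counts in the 3 Nr2f6+/+ IgG2b samples and at 7269, 6341 and 8843 in the 3 Nr2f6-/- IgG2b samples. With anti-PD-L1 it ranged from 379 to 3196 with a median of 1383 in Nr2f6+/+ and from 893 to 2595 with a median of 1849 in Nr2f6-/- mice. The highest treated sample, Nr2f6+/+ replicate 5, came close to the lowest control, and the groups did not overlap. The mean was 6498 ± 1819 (SD, n = 6) with IgG2b and 1684 ± 817 (SD, n = 12) with anti-PD-L1. The log2 difference averaged over genotypes was -2.10 (SE 0.29, limma adjusted p = 9.65e-05).

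H2-Ab1, the partner chain of H2-Aa, was at 2151, 3802 and 2292 in Nr2f6+/+ IgG2b and at 3175, 3536 and 3754 in Nr2f6-/- IgG2b samples. With anti-PD-L1 it ranged from 225 to 1269 (median 598) in Nr2f6+/+ and from 398 to 940 (median 755) in Nr2f6-/- mice, so that no treated sample reached a control. The log2 difference averaged over genotypes was -2.23 (SE 0.28, limma adjusted p = 2.13e-05).

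H2-Eb1, the chain without a partner in this strain, was at 1744, 3395 and 2818 in Nr2f6+/+ IgG2b and at 3536, 3921 and 5625 in Nr2f6-/- IgG2b samples. With anti-PD-L1 it ranged from 512 to 1697 (median 785) in Nr2f6+/+ and from 354 to 1262 (median 705) in Nr2f6-/- mice. The highest treated sample was again Nr2f6+/+ replicate 5, just under the lowest control. The log2 difference averaged over genotypes was -2.12 (SE 0.26, limma adjusted p = 1.35e-05).

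Cd74, the only one of the 8 genes on chromosome 18 (60803848 to 60812652), was at 729, 1168 and 698 in Nr2f6+/+ IgG2b and at 1052, 950 and 1323 in Nr2f6-/- IgG2b samples. With anti-PD-L1 it ranged from 146 to 443 (median 262) in Nr2f6+/+ and from 91.8 to 493 (median 255) in Nr2f6-/- mice, and the treatments did not overlap. The log2 difference averaged over genotypes was -1.92 (SE 0.33, limma adjusted p = 0.00204). Samples of the 2 treatments did not overlap downwards in 0.309% of all genes tested.

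**Figure D1:**
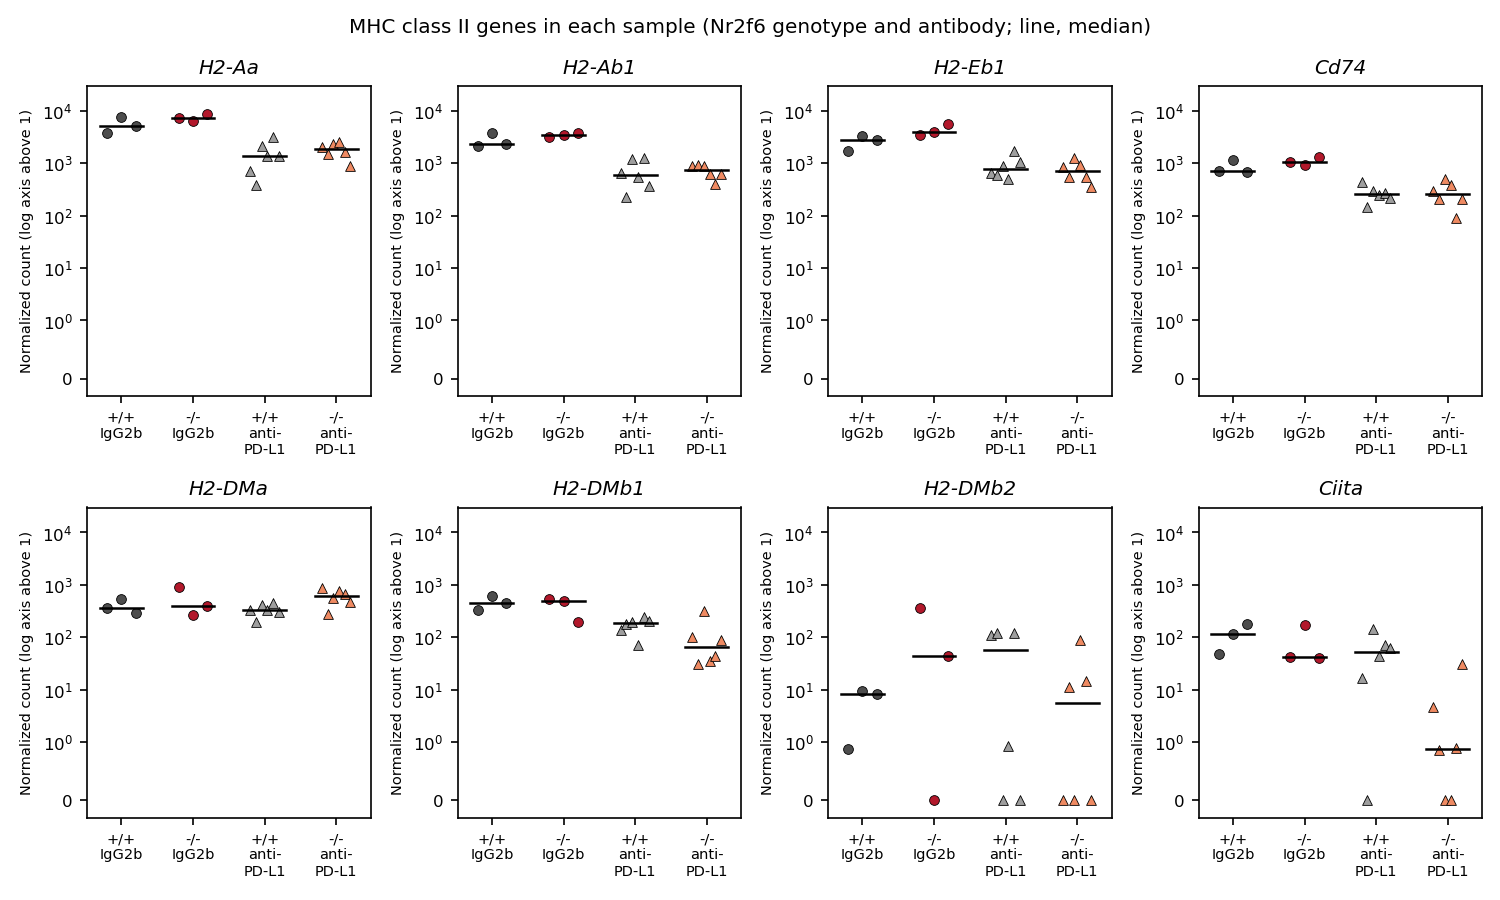
Normalized counts of the 8 MHC class II genes (y axis, logarithmic above 1) in each of the 18 samples, grouped by Nr2f6 genotype and antibody on the x axis, with a line at each group's median. In H2-Aa, H2-Ab1, H2-Eb1 and Cd74 all 12 anti-PD-L1 samples (triangles) lie below all 6 IgG2b samples (circles), whereas H2-DMa, H2-DMb1, H2-DMb2 and Ciita overlap between treatments.

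None of the genes of the peptide exchange chaperone passed the threshold averaged over genotypes. H2-DMa, its α chain, was at 356, 528 and 287 in Nr2f6+/+ IgG2b and at 905, 268 and 387 in Nr2f6-/- IgG2b samples, and between 195 and 884 in the 12 anti-PD-L1 samples. Its log2 difference averaged over genotypes was 0.05 with a 95% confidence interval from -0.60 to 0.69, which does not reach the log2 differences of the 3 chain genes and Cd74. Exons of H2-DMa overlap exons of Brd2 on the opposite strand, which had a median of 2148 normalized counts. The strand setting of the counting is not given in the sources used here. Where the overlap lies relative to the 3′ ends, at which reads fall, was not tested. Whether reads of Brd2 entered the count of H2-DMa is therefore not known.

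H2-DMb1, a β chain gene of the chaperone, was at 334, 616 and 453 in Nr2f6+/+ IgG2b and at 542, 482 and 192 in Nr2f6-/- IgG2b samples. With anti-PD-L1 it ranged from 72.4 to 243 (median 187) in Nr2f6+/+ and from 30.4 to 315 (median 66.1) in Nr2f6-/- mice. The treatments overlapped through 1 control, Nr2f6-/- IgG2b replicate 3, and a few treated samples. The log2 difference averaged over genotypes was -1.92 (SE 0.51) and missed the threshold (limma adjusted p = 0.0589). H2-DMb2, the second β chain gene, was at 0.879, 9.38 and 8.29 in Nr2f6+/+ IgG2b and at 365, 0 and 43.7 in Nr2f6-/- IgG2b samples, and ranged from 0 to 122 with anti-PD-L1. Its confidence interval averaged over genotypes ran from -3.51 to 2.29 on the log2 scale, so a change of the size seen in H2-DMb1 was not detectable in it. The longest transcripts of H2-DMb1 and H2-DMb2 were 94.6% identical over 1219 aligned bases, with an identical run of up to 221 bases. In their last 300 bases, where 3′ reads fall, they were 75.8% identical over 273 aligned bases. The longest identical run there was 23 bases. How well reads were split between both genes was not tested.

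Ciita was low, at 48.3, 118 and 179 normalized counts in Nr2f6+/+ IgG2b and at 42.8, 173 and 39.6 in Nr2f6-/- IgG2b samples. With anti-PD-L1 it ranged from 0 to 143 (median 53.1) in Nr2f6+/+ and from 0 to 31.1 (median 0.884) in Nr2f6-/- mice, and 3 of the 12 samples were at 0. The log2 difference averaged over genotypes was -3.18 (SE 1.09, limma adjusted p = 0.177). At an unadjusted p under 0.05, 6 of the 8 genes were lower, Ciita and H2-DMb1 among them, where 7.47% of all genes were. On the recovered reads of 16 samples DESeq2 gave an adjusted p of 0.0187 for it, whereas edgeR gave 0.201 on the same reads. Exons of Ciita overlap exons of Dexi on the opposite strand, which had a median of 592 normalized counts, so the same limit on strand holds here.

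Within each genotype fewer samples stood behind the comparison. In Nr2f6+/+ mice 3 of the 8 genes fell past the threshold, where 0.242% of all genes tested did. These were H2-Aa (log2 difference -2.10, limma adjusted p = 0.0159), H2-Ab1 (-2.14, adjusted p = 0.00927) and H2-Eb1 (-1.62, adjusted p = 0.0482). Without Nr2f6+/+ IgG2b replicate 2, or without replicate 3, none of the 8 genes passed, and H2-Eb1 passed in 3 of the 18 fits that left out 1 sample each. At an unadjusted p under 0.05, 5 of the 8 were lower in Nr2f6+/+ mice, where 5.05% of all genes were. In Nr2f6-/- mice 4 of the 8 fell, where 0.192% of all genes did. These were H2-Aa (-2.09, limma adjusted p = 0.0146), H2-Ab1 (-2.32, adjusted p = 0.00601), H2-Eb1 (-2.63, adjusted p = 0.000318) and Cd74 (-2.14, adjusted p = 0.0341). Without any 1 of the 3 Nr2f6-/- IgG2b replicates 2 of the 8 passed. In the 18 fits that left out 1 sample each, H2-Ab1 and H2-Eb1 passed in 18, H2-Aa in 15 and Cd74 in 9. Cd74 in Nr2f6+/+ mice had a log2 difference of -1.71 and missed the threshold (limma adjusted p = 0.173), although its samples did not overlap between treatments, which held for 3.22% of all genes in this direction.

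**Figure D2:**
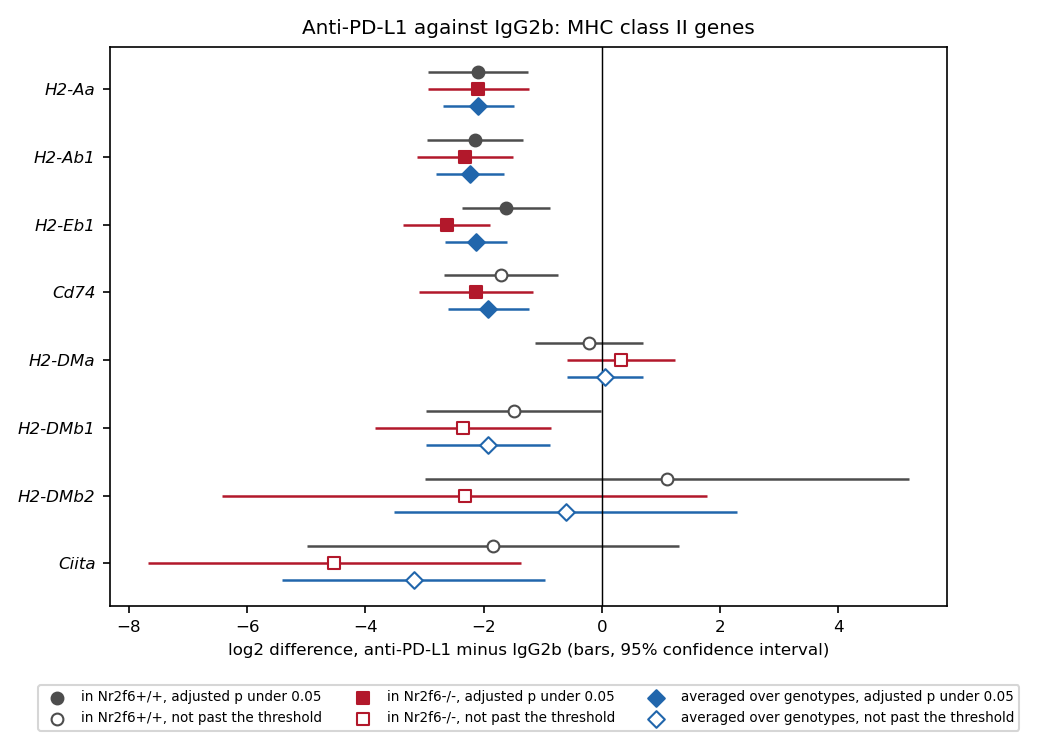
Log2 difference of anti-PD-L1 minus IgG2b (x axis) for the 8 MHC class II genes (y axis) in Nr2f6+/+ mice, in Nr2f6-/- mice and averaged over both, with 95% confidence intervals from limma as bars and filled symbols where the adjusted p was under 0.05. The averaged values of H2-Aa, H2-Ab1, H2-Eb1 and Cd74 lie between -2.23 and -1.92, and those of H2-DMb2 and Ciita have the widest intervals.

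The treatment effect was compared between genotypes with the interaction term of the same model. None of the 8 genes passed it, and 0% of all genes tested did. At an unadjusted p under 0.05 the count was also 0 of 8, where 4.97% of all genes passed, and edgeR and DESeq2 on 16 samples called 0 of 8, where they called 0% and 0.592% of all genes. The difference of the effects was 0.01 for H2-Aa (95% confidence interval -1.19 to 1.21), -0.17 for H2-Ab1 (-1.32 to 0.97) and -0.43 for Cd74 (-1.79 to 0.94). For H2-Eb1 it was -1.01 (-2.05 to 0.04), with an unadjusted limma p of 0.0588. These intervals are wide and do not show that the genotypes responded alike.

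The library set could be separated from treatment in the first set, which holds 3 samples of each group. In it the same 4 genes passed averaged over genotypes, with log2 differences of -2.30 for H2-Aa, -2.10 for H2-Ab1, -2.09 for H2-Eb1 and -1.72 for Cd74 (limma adjusted p between 0.000251 and 0.0150), where 0.717% of all genes were lower. The second set holds anti-PD-L1 samples only and gives no treatment comparison.

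The loss of Nr2f6 was compared within each antibody. With IgG2b none of the 8 genes passed the threshold, nor did any gene of all tested (0%), and limma's unadjusted p was under 0.05 for 0 of 8, where it was for 5.35% of all genes. Both edgeR and DESeq2 called 0 of 8, where they called 0% and 0.667% of all genes. H2-Eb1 was higher in every Nr2f6-/- than in every Nr2f6+/+ IgG2b sample, by 0.74 on the log2 scale (SE 0.42, limma adjusted p = 0.956), and 6.1% of all genes tested were higher without overlap. The 95% confidence intervals of all 3 chain genes included 0, from -0.11 to 1.60 for H2-Eb1, from -0.49 to 1.47 for H2-Aa and from -0.55 to 1.33 for H2-Ab1.

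With anti-PD-L1, none of the 8 genes differed between genotypes past the threshold, where 0.175% of all genes tested did. The log2 difference of Nr2f6-/- minus Nr2f6+/+ was 0.50 for H2-Aa (95% confidence interval -0.20 to 1.19), 0.22 for H2-Ab1 (-0.45 to 0.88), -0.27 for H2-Eb1 (-0.87 to 0.34) and -0.04 for Cd74 (-0.83 to 0.75). At an unadjusted p under 0.05 there were 2 of 8, Ciita with -3.28 (SE 1.26) and H2-DMa with 0.80 (SE 0.37), where 9.73% of all genes passed. Ciita was at 16.7 or more in 5 of 6 Nr2f6+/+ samples and under 5 in 5 of 6 Nr2f6-/- samples, and the ranges overlapped. Its limma adjusted p was 0.363, edgeR's on 16 samples was 0.224 and DESeq2's was 0.00416, and DESeq2 called 1 of 8 in all, where it called 2.53% of all genes. Exons of Ciita are shared with Dexi on the other strand, as given above.

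The combination of Nr2f6 loss and anti-PD-L1 was set against Nr2f6+/+ mice with IgG2b. This comparison shares its controls with the treatment comparison in Nr2f6+/+ mice and its treated samples with that in Nr2f6-/- mice. H2-Ab1 fell by 1.93 on the log2 scale (SE 0.40, limma adjusted p = 0.0144) and H2-Eb1 by 1.89 (SE 0.36, adjusted p = 0.00920), 2 of the 8 genes, where 0.459% of all genes fell. At an unadjusted p under 0.05, 6 of the 8 were lower, where 5.92% of all genes were. H2-Aa (log2 difference -1.60, limma adjusted p = 0.0718) and Cd74 (-1.75, adjusted p = 0.0878) missed the threshold. Without Nr2f6+/+ IgG2b replicate 2, or without replicate 3, 0 of the 8 passed, and without replicate 1 there was 1.

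The order of the group means was looked at for the 3 chain genes. Nr2f6-/- IgG2b had the highest mean and Nr2f6+/+ IgG2b the next, and these neighbours did not differ past the threshold. Both anti-PD-L1 groups followed, and they too did not differ from each other past it.

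The other genes of class II presentation were described from a list of 16, of which 14 are rows of the table and 13 were tested. Averaged over genotypes 3 fell and 1 rose, where 0.934% of all genes fell and 0.2% rose, and the median log2 difference was -0.77. Cd40, the receptor through which helper T cells license antigen-presenting cells, fell from between 39.6 and 175 to between 0 and 22.3 normalized counts (log2 difference -5.22, limma adjusted p = 0.00435). Lgmn, a lysosomal endopeptidase that can begin the cutting of antigens and of the invariant chain, had a log2 difference of -2.66 (SE 0.48, adjusted p = 0.00301). Ctss, the protease that makes the last cut in the invariant chain, fell by 0.69 (SE 0.15, adjusted p = 0.0154). Ctsd, a lysosomal aspartic protease, rose by 0.46 (SE 0.11, adjusted p = 0.0301). Ifi30, which encodes a lysosomal thiol reductase, had a log2 difference of -0.95 (adjusted p = 0.0819), and fell by 1.70 (limma adjusted p = 0.0337) in the combination against Nr2f6+/+ mice with IgG2b. The co-stimulatory ligand genes Cd80 and Cd86 were at 0.11 and 0.05 on the log2 scale and did not pass, and H2-Oa and H2-Ob, which encode the inhibitor of H2-DM, were at -1.38 and -1.53 with intervals that included 0.

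Of 18 regulators of class II transcription, 1 fell and 0 rose past the threshold by limma, and at an unadjusted p under 0.05 there were 3 lower and 3 higher, where 7.47% of all genes were lower and 4.04% higher. Spi1, which encodes the myeloid and B cell transcription factor PU.1, fell by 2.88 (SE 0.68, limma adjusted p = 0.0282). It ranged from 206 to 551 in the IgG2b and from 5.10 to 280 in the anti-PD-L1 samples. The interferon pathway genes Irf1 (0.15) and Jak1 (-0.47) did not pass, nor did Ifng (0.46, adjusted p = 0.263). Rfx5, a subunit of the factor that binds the X box, had a log2 difference of 0.80 (adjusted p = 0.376).

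**Figure D3:**
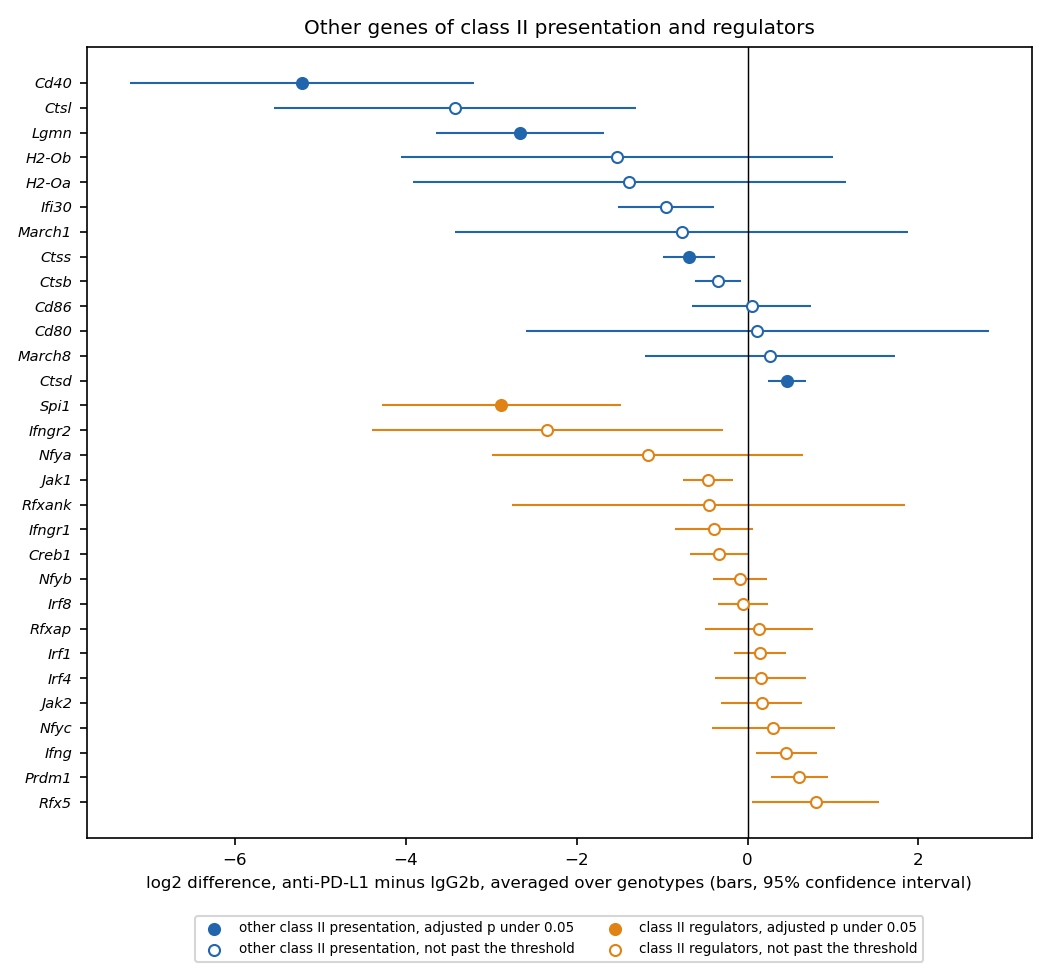
Log2 difference of anti-PD-L1 minus IgG2b averaged over genotypes (x axis) for other genes of class II presentation and regulators of class II transcription (y axis), with 95% confidence intervals as bars and filled symbols where the limma adjusted p was under 0.05. Cd40, Lgmn, Ctss and Spi1 lie below 0 and Ctsd above it past the threshold, while the intervals of most regulators reach or cross 0.

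Because the cells had been sorted for CD3, transcripts of other cells that carry class II were set beside the 8 genes. Macrophage transcripts were lower with anti-PD-L1 as well. All 14 macrophage markers had log2 differences below 0 averaged over genotypes, with a median of -3.71, where 56.4% of all genes lay below 0. Past the threshold 8 of the 14 fell, where 0.934% of all genes did. Among them were Lyz2, Apoe, C1qb, C1qc, Mrc1, Adgre1 and Cd14, with log2 differences from -5.17 to -2.50. The complement gene C1qb and the lysozyme gene Lyz2 had the smallest adjusted p (0.00254 and 3.20e-07, limma). As for H2-Aa, H2-Ab1, H2-Eb1 and Cd74, the treatments did not overlap in the sum of these markers. In bulk RNA, fewer cells of a type and less RNA per cell cannot be told apart.

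B cell markers ranged widely. Cd79a, a signaling chain of the B cell receptor, had 0 reads in all 18 samples, and Pax5 reached at most 5.2 and Ms4a1 at most 10.9 normalized counts. Only 7 of the 14 B cell markers had means high enough for the test and 0 passed by limma. At an unadjusted p under 0.05, 2 were lower, where 7.47% of all genes were. The summed level of the 14 B cell markers came mostly from the immunoglobulin genes Ighm and Igkc. It was between 2464 and 7123 with IgG2b and between 1711 and 2966 with anti-PD-L1, and these ranges overlapped. Fcrla, a B cell Fc receptor-like gene, was between 78.2 and 156 with IgG2b and between 0 and 152 with anti-PD-L1 (log2 difference -3.58, limma adjusted p = 0.125). Cd79b, the other signaling chain, reached 192 in 1 Nr2f6+/+ IgG2b sample and 150 in 1 Nr2f6-/- anti-PD-L1 sample, and Blnk and Ighd also reached over 100 in single samples. Of the dendritic cell markers, 12 of 14 were tested. All 12 had log2 differences below 0 with a median of -1.77, where 56.4% of all genes lay below 0. None passed by limma, and 6 were lower at an unadjusted p under 0.05, where 7.47% of all genes were. The summed level of these markers did not overlap, between 2183 and 3156 with IgG2b and between 964 and 2176 with anti-PD-L1. Ccr7 and Itgax, which T cells can also express, gave much of that sum. The next most abundant were Clec10a, a lectin gene, with a log2 difference of -1.60 (limma adjusted p = 0.0991), and Zbtb46, a dendritic cell transcription factor gene, with -1.71 (adjusted p = 0.600).

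The 7 melanoma markers tested had a median log2 difference of 0.00, and 0 of them passed by limma. At an unadjusted p under 0.05 there were also 0, where 7.47% of all genes were lower and 4.04% higher. The log2 differences of the most abundant, Dct, Pmel, Tyrp1 and Gpnmb, were 0.18, 0.30, -0.44 and -0.28. Of the 10 T cell markers 8 had log2 differences above 0, where 56.4% of all genes lay below 0, and 0 passed. At an unadjusted p under 0.05, 4 were higher, where 4.04% of all genes were. The log2 differences of Trac, Cd8b1, Cd3d and Cd3e were 0.08, 0.32, 0.33 and 0.34.

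The level of the chain genes and Cd74 was then set against the macrophage markers within each sample. The ratio of the summed normalized counts of H2-Aa, H2-Ab1, H2-Eb1 and Cd74 to the macrophage sum was between 0.504 and 0.776 in Nr2f6+/+ IgG2b samples and between 1.38 and 1.48 in Nr2f6-/- IgG2b samples. With anti-PD-L1 it was between 0.763 and 1.44 in Nr2f6+/+ and between 1.32 and 2.77 in Nr2f6-/- mice. The median ratio went from 0.662 to 1.01 in Nr2f6+/+ and from 1.47 to 1.97 in Nr2f6-/- mice, so that the class II genes were not lower with anti-PD-L1 relative to this sum. Against the B cell sum the ratio was between 2.22 and 6.73 with IgG2b and between 0.612 and 3.76 with anti-PD-L1. Against the dendritic cell sum it was between 3.61 and 6.89 (median 5.29) with IgG2b. With anti-PD-L1 that ratio was between 0.807 and 5.81 (median 2.29), so the class II genes were mostly lower relative to this sum. Much of the dendritic cell sum came from Ccr7 and Itgax, which T cells can also express. The mean log2 level of the dendritic cell markers was 5.32 with IgG2b and 3.49 with anti-PD-L1. It was 9.15 and 5.53 for the macrophage markers, and 11.4 and 9.35 for H2-Aa, H2-Ab1, H2-Eb1 and Cd74. Lyz2 was the most abundant macrophage marker, with a mean of 6930 beside 17939 for the macrophage sum in Nr2f6+/+ IgG2b samples. The macrophage sum itself was lower in every Nr2f6-/- than in every Nr2f6+/+ IgG2b sample, at most 13244 against at least 16544. Of its 14 genes 13 had log2 differences below 0 there, as did 54.1% of all genes. By limma 0 of the 14 passed, where 0% of all genes did. At an unadjusted p under 0.05 there were also 0, where 5.35% of all genes passed.

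With the mean log2 level of the macrophage markers as a covariate, 0 of the 8 genes passed averaged over genotypes, and the log2 differences became 0.46 for H2-Aa, -0.21 for H2-Ab1, -0.41 for H2-Eb1 and -0.99 for Cd74. In that fit 0 of all 11992 genes passed. The covariate did not overlap between treatments, between 8.61 and 9.61 with IgG2b and between 4.0 and 7.61 with anti-PD-L1, so treatment and macrophage transcript level cannot be told apart by it. With the mean of the B cell markers as a covariate H2-Aa, H2-Ab1, H2-Eb1 and Cd74 all passed, with log2 differences between -2.16 and -1.69.

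**Figure D4:**
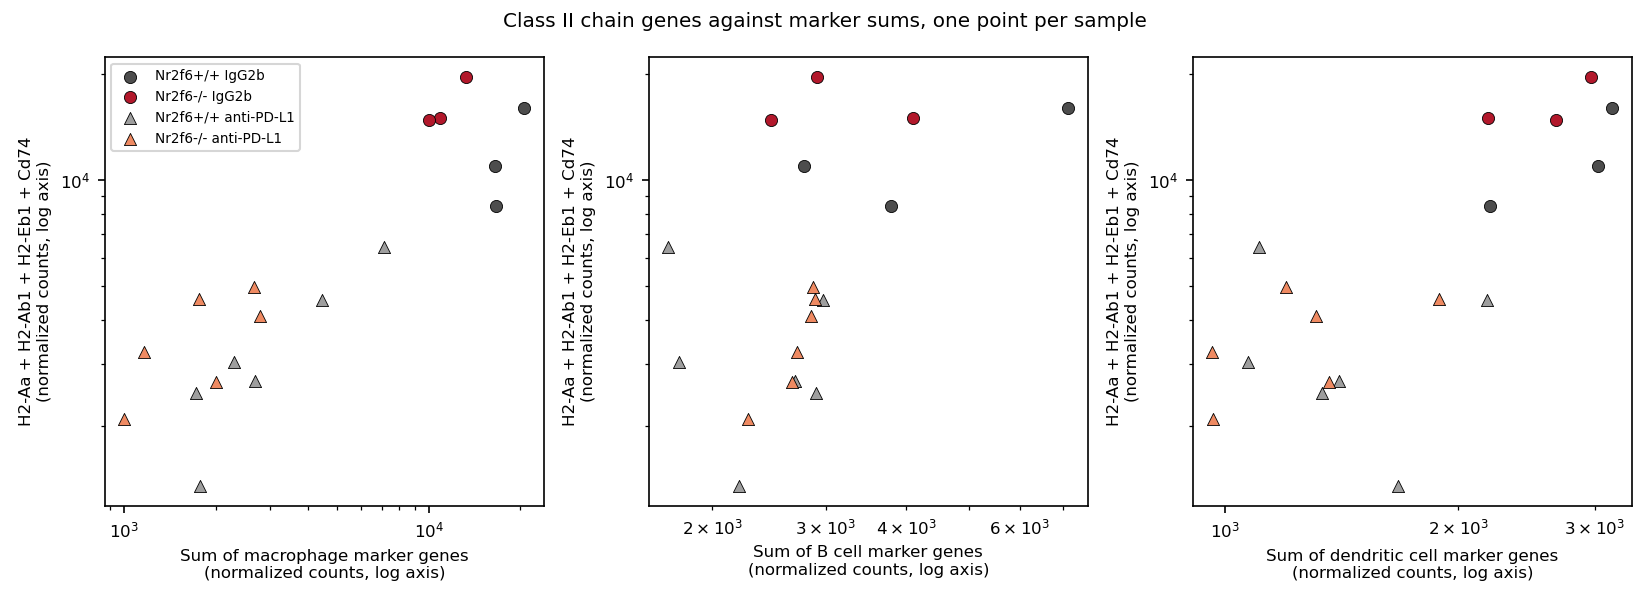
Summed normalized counts of H2-Aa, H2-Ab1, H2-Eb1 and Cd74 (y axis, logarithmic) against the summed counts of macrophage, B cell and dendritic cell markers (x axes, logarithmic), 1 point per sample. The anti-PD-L1 samples (triangles) lie at lower macrophage and dendritic cell sums than the IgG2b samples (circles), whereas their B cell sums overlap, and Nr2f6-/- IgG2b samples have less macrophage signal than Nr2f6+/+ IgG2b samples.

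Within the 12 anti-PD-L1 samples, the only treatment with at least 6 samples of each genotype, each of the 8 genes was correlated with the mean log2 level of 5 marker lists. None of the 40 relations passed adjustment by the Benjamini-Hochberg method. The highest was that of H2-Eb1 with the macrophage markers (Pearson's r = 0.734, permutation p = 0.00679, adjusted p = 0.172). Spearman's rho was 0.615 (permutation p = 0.0367, adjusted p = 0.384), and r without the 2 samples farthest from the median was 0.605. The r was 0.785 in Nr2f6+/+ and 0.694 in Nr2f6-/- mice, and 0.547 and 0.838 in the first and second library set. H2-Ab1 and H2-Aa had r of 0.601 and 0.594 with the macrophage markers (adjusted permutation p = 0.419 for both). Over the 12 samples these values fell to 0.204 and 0.166 without the 2 farthest samples and so depended on them. In Nr2f6+/+ and Nr2f6-/- mice r was 0.861 and 0.688 for H2-Aa, and 0.908 and 0.159 for H2-Ab1. In the first and second library set it was 0.603 and 0.708 for H2-Aa, and 0.734 and 0.513 for H2-Ab1. With the B cell markers r was 0.108 for H2-Eb1, 0.246 for H2-Ab1 and -0.07 for H2-Aa (adjusted permutation p between 0.707 and 0.925). Cd74 had an r of 0.409 with the B cell, 0.374 with the dendritic cell and 0.347 with the macrophage markers (adjusted permutation p = 0.707 for each). H2-DMb1 with the melanoma markers had an r close to the highest, 0.725 (permutation p = 0.00859, adjusted p = 0.172), with a rho of 0.608 (adjusted permutation p = 0.384) and an r of 0.522 without the 2 farthest samples. That r was 0.378 in Nr2f6+/+ and 0.675 in Nr2f6-/- mice, and 0.467 and 0.951 in the first and second library set. All values of a sample share its library and depth.

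The genes most alike in pattern were ranked by Pearson's r, over the 18 samples, with the mean log2 level of H2-Aa, H2-Ab1, H2-Eb1 and Cd74. The r of the 10 highest, given as a description, ran from 0.878 for Ifitm2, an interferon-induced membrane protein gene, to 0.828 for Dusp1. Between them stood Dhrs3, Cd40, Lyz2, Lmo2, Tppp3, C1qc, Cxcl2 and St6gal1. Lyz2 and C1qc are macrophage markers of the list above. After removal of the group means r was between 0.193 for Cd40 and 0.809 for C1qc. C1qc ranged from 549 to 1448 with IgG2b and from 1.02 to 794 with anti-PD-L1. The B cell marker most alike was Fcrla, at rank 286 of 11984 genes (r = 0.609), and Ighm stood at rank 1001.

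Among the 8 genes themselves, H2-Aa and H2-Ab1 had an r of 0.918 over the 18 samples and 0.727 after removal of the group means, and H2-Aa and H2-Eb1 0.898 and 0.764. H2-DMa had an r between 0.0642 and 0.320 with the 3 chain genes and Cd74 over the 18 samples. The log2 ratio of H2-Aa to H2-Ab1 was 1.04 ± 0.18 (SD, n = 6) with IgG2b and 1.18 ± 0.61 (SD, n = 12) with anti-PD-L1, a difference within the spread between samples.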

How the data were processed

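Adapter and quality trimming by the authors used Cutadapt and Trimmomatic. Reads under 22 nt were dropped, alignment to mm10 was with STAR, followed by Bowtie2, and HTSeq-count gave reads per gene, which were divided by DESeq2 size factors. What the authors deposited is this signal, a normalized count, for each sample on its own. Versions, annotation and strand setting are not given in the sources used here.

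Every value was a whole multiple of its column's step (100%, tolerance 0.001 of a step), which gives whole reads and the depths stated. The kit's values carry no molecular identifiers, so floors cover counting error only. No 2 columns were identical. Samples were grouped by the genotype and antibody in their labels. The main test was limma 3.58.1 (R 4.3.3, eBayes with trend) on log2(normalized count + 1) for genes with a mean of at least 10, in 1 model of the 4 group means over 18 samples. Tests were two-sided with Benjamini-Hochberg adjustment over all 11992 genes and a threshold of 0.05. Log2 differences understate changes of low genes. Correlations were tested with 100000 permutations.

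The alternatives were other pseudocounts, filters, scalings, sample choices, library set and replicate number as terms, sample weights, marker covariates, edgeR 4.0.16, DESeq2 1.42.0 and leaving out each sample. Both count tools were run on recovered reads of 16 samples, since Nr2f6-/- anti-PD-L1 replicates 4 and 6 have steps so near 1 that recovery could not be checked independently, and limma was rerun on the same 16, a choice made after seeing the data. Limma, edgeR and DESeq2 were also run on simulated counts, drawn independently for each gene, so no variation was shared between genes. The outcome is not reported here. The genes named are the 8 members, Nr2f6, each list's genes past the threshold or else its 4 most abundant, and the 10 most alike in pattern. Other genes named (Cd79a, Pax5, Ms4a1, Blnk, Ighd, H2-Oa, H2-Ob, Cd80, Cd86, Irf1, Jak1, Ifng, Rfx5, Brd2, Dexi and Gm36553) were chosen after their values were seen. A few genes of the lists are not reported here by name. The members and lists were chosen with earlier results of these data known. Positions are from GENCODE vM21 and promoters from RefSeq (GRCm38.p6).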

Additional observations from a re-analysis of the deposited data

Results flagged for a closer look

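Of 23 sets of 6 samples searched for a single sample far from the others, 4 were flagged, where chance flags about 1 in 20. All 4 are among the Nr2f6-/- anti-PD-L1 samples. For H2-DMb1 the highest sample was at 315 normalized counts beside a group median of 66.1. For H2-DMb2 the highest was at 88.9 beside a median of 5.64, and for Ciita it was at 31.1 beside a median of 0.884. The sum of the B cell markers had its lowest sample at 2277 beside a median of 2776. The 3 high values belong to replicates 3, 4 and 6 in that order.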

How the results depend on the processing

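Averaged over genotypes, between 4 and 6 of the 8 genes passed under every alternative but the macrophage marker mean as a covariate, which gave 0. With that covariate direction reversed for H2-Aa (0.46 averaged, 0.42 in Nr2f6+/+ and 0.51 in Nr2f6-/- mice), Ciita (0.27 averaged), H2-Eb1 (0.065 in Nr2f6+/+ mice, 0.18 for the combination) and H2-Ab1 (0.52 for the combination). It also reversed H2-Aa for the combination (1.49) and Ciita in Nr2f6+/+ mice (1.56), neither past the threshold before, while treatments did not overlap in the covariate. In Nr2f6+/+ mice the count of 3 became 1 with no filter, with the library set as a covariate or with the replicate block, 0 with only the groups compared or with either marker covariate, and 5 at an unadjusted p. In Nr2f6-/- mice the count of 4 became 2 with no filter, edgeR or limma on 16 samples, 1 in the first library set and 0 with the macrophage covariate. For the combination the count of 2 became 1 with no filter, in the first library set, with edgeR or with limma on 16 samples, 4 with DESeq2, 6 with sample weights or an unadjusted p, and 0 with either marker covariate. Between genotypes under anti-PD-L1 the count of 0 became 1 with DESeq2 and 2 at an unadjusted p. Leaving out each sample gave 0 to 3 genes in Nr2f6+/+ mice, 2 to 4 in Nr2f6-/- mice, 4 to 5 averaged, 0 to 3 for the combination and 0 elsewhere. The causes were not tested. Replicate numbers did not pair the samples (mean correlation of deviations between -0.03 and 0.03 per number), and the replicate block moved no other count of the 8 genes beyond 1.5 times. The correlations had 0 pairs past the threshold in all settings. A single library set has too few samples for any pair alone to pass adjustment over 40 pairs, whatever its r. The settings that used such a set are therefore no check on single pairs. Over all genes, the averaged comparison called 136 by limma, 88 with no filter, 69 with the library set or the replicate block, 62 with the B cell covariate, 74 with edgeR, 305 with DESeq2, 211 with a pseudocount of 10 and 273 with sample weights. Of these, 112 were lower and 24 higher by limma, and 179 were lower and 126 higher by DESeq2. Depth limits Ciita and H2-DMb2, which had samples at 0 reads.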
